A study of Mus musculus with 2 samples.

Results

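The 10 genes described here encode glycolytic enzymes, namely Hk2, Gpi1, Pfkl, Aldoa, Tpi1, Gapdh, Pgk1, Eno1, Pkm and Ldha. They were taken by symbol: every probe outside the array's controls whose gene name in the scanner files equals one of these symbols belongs to the set, which gives 31 of 56605 probes. All 10 symbols were found on the array. Blood RNA of mice was read on Agilent expression arrays of 60-base probes labelled in a single colour, 1 for the heated sample and 1 for its control. The heated sample, per the labels, was kept at 37 °C for 1 h in a water bath as a pretreatment, and 1 h at 38.5 °C followed. How warm and how long the control was kept is not in the labels, nor are strain, sex and age, nor whether animals or drawn blood were heated. The effect of 38.5 °C therefore cannot be told apart from that of the pretreatment or of handling. RNA of both samples was prepared after differential lysis of red and white cells, and globin transcripts were depleted. With 1 array a group, no difference below has a replicate check or a p-value.

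Glycolysis splits glucose into pyruvate in the cytosol and yields ATP without oxygen. Hexokinase, glucose phosphate isomerase and phosphofructokinase prepare the sugar, aldolase and triosephosphate isomerase split it, and the enzymes from glyceraldehyde phosphate dehydrogenase to pyruvate kinase recover ATP. Lactate dehydrogenase turns pyruvate into lactate and so regenerates the NAD+ that the pathway consumes. Leukocytes rely on it strongly: neutrophils draw most of their ATP from it, and macrophages raise it when activated, partly through the transcription factor HIF1. Mature red cells have no mitochondria and depend on it for their ATP.

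The sequences of the probes show what a value can stand for. The first set below belongs to messenger RNA records and is shown because the Gpi1 and Tpi1 probes carry the lowest values of their genes and the Ldha probe one near 0. Sequences run 5′ to 3′ as the scanner files give them, with mm9 positions and the strand of the transcript. The Gpi1 probe spans chr7:34987856-34989053 on the minus strand, 1198 bases, and so crosses at least 1 intron. The first and second Tpi1 probes lie at chr6:124762454-124762513 and chr6:124761923-124761982 on the minus strand, and the Ldha probe lies at chr7:54103010-54103069 on the plus strand.
Gpi1, base 1515 of its record: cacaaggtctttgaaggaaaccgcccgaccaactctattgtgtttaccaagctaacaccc
Tpi1, base 539 of its record: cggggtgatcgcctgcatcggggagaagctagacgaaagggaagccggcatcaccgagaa
Tpi1, base 634 of its record: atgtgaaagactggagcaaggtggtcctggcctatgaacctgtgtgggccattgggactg
Ldha, base 351 of its record: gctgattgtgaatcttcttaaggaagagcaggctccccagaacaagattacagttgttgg

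The next set shows a Pkm junction probe beside a Pkm clone probe, and a Gapdh probe that shares bases with a probe of another name. The first Pkm probe spans chr9:59518501-59519397 on the plus strand, 897 bases, and so crosses an intron of the Pkm messenger RNA. The second Pkm probe, at chr9:59520400-59520459 on the plus strand, is listed with a complementary DNA clone and with no RefSeq transcript. Capitals in it mark its 3 stop triplets (TAA, TAG or TGA), which fall in all 3 forward reading frames. Stops in all 3 frames do not set it apart. They also occur in the Hk2 probe, the overlapping pair of Gpi1 probes and 1 probe each of Tpi1, Gapdh and Eno1. The Gapdh probe lies at chr6:125113312-125113371 on the minus strand. Its capitals mark bases 1 to 29, which stand unchanged in another probe of the array that carries an Ensembl transcript name and not Gapdh.
Pkm, base 1087 of its record: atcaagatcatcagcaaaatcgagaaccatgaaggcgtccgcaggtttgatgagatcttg
Pkm, clone probe: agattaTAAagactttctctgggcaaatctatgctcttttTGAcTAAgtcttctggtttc
Gapdh, base 346 of its record: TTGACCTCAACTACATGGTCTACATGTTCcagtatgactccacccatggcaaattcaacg

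As a measure of each probe, the files give the processed signal, a brightness corrected for background by the scanner software, on a linear scale. Differences are heated minus control on the log2 scale after each array was scaled to its 75th percentile, which added 0.04 to the log2 ratio of the signals, and a gene's value averages the probes that the scanner software marked as well above background on each of the arrays. Of the 31 probes, 29 were well above background on both arrays, and all 10 genes kept at least 1. The scanner software estimates an error for each spot, and these put the error of a difference between 0.204 and 0.241 for these 29 probes. It was 0.204 at all of them but the dimmest, a Tpi1 probe at 0.241, and so acts as a nearly fixed cutoff. Spots of 1 probe printed 10 times scattered less, with an SD of 0.084 over 283 such probes. All 18562 gene names measured on both arrays had a median difference of 0.01 and an SD of 0.24, and the 6267 of them at least as bright as the dimmest enzyme had 0.00 and a narrower SD of 0.15. Of 12 monocyte and macrophage markers, all were well above background on both arrays, with a median difference of 0.09, as were all 10 markers of dividing cells, with a median of -0.06. Of 11 red cell markers 2 were detected, the alpha globin genes, and Alas2 and Hbb-b1 were not. Of 7 B cell markers on the array 1 was detected, and Cd79a and Ms4a1 were not. The 8 detected of 11 neutrophil markers had a median of 0.02 and ran from -0.37 for Camp to 0.25 for Mmp8, with Cxcr2, Ly6g and Retnlg not detected. The 8 detected of 10 T cell markers had a median of 0.05 and ran from -0.57 to 0.35, with Cd3g and Cd8a not detected, and the 4 of 8 skeletal muscle markers had 0.05, with Ckm and Acta1 not detected. The 3 detected of 7 platelet markers had 0.15 to 0.40, with Ppbp, Itga2b, Gp9 and Gp1ba not detected. The 0.15 was that of Itgb3, whose 2 probes had -0.30 and 0.60. Of 8 NK cell markers 2 were measured, Prf1 at -1.68 and Klrb1c at -0.01, with Ncr1, Klrd1, Gzma, Gzmb and Eomes not detected. The Prf1 value came from 1 dim probe, with 46.0 in heated blood and 151.6 in control blood. Differences in these cells' shares and in RNA per cell cannot be told apart in such bulk samples, and their part in the values below was not tested.

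No glycolytic enzyme differed by as much as 0.25 on the log2 scale. Their values lay between -0.17 for Hk2 and 0.16 for Pkm, with a median of -0.04, against a median of 0.01 for all genes. None of the 10 was 2-fold apart, where 0.663% of all genes were. None was higher by at least 0.25, a step that 9.18% of all genes passed, and none was lower by at least 0.25, which 8.72% of all genes passed and 3.41% of the genes at least as bright as the dimmest enzyme. The share of such bright genes that were higher by this step was not computed. Bright genes varied less, with the SD of 0.15 against 0.24, so the 9.18% is no matched share. By sign alone 7 of the 10 were lower and 3 higher in the heated sample, against 47.8% and 52.2% of all genes and 49.8% lower among the genes at least as bright. The count of lower enzymes ran from 4 to 9 over 12 other ways of processing, and the share of all genes that were lower moved too, to 35.3% with the mean minus background, where 4 enzymes were lower, and to 58.6% without scaling, where 9 were. With dim probes kept 64.1% of all genes and 7 enzymes were lower, and with the brightest probe of each gene 48.9% and 9. Of the 29 usable probes 14 were higher and 15 lower, and 28 of them lay closer to 0 than the software's error. Since that error was 0.204 at nearly every probe, this is close to a count below a fixed cutoff. It is not a count against the measured noise of each probe.

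**Figure D1:**
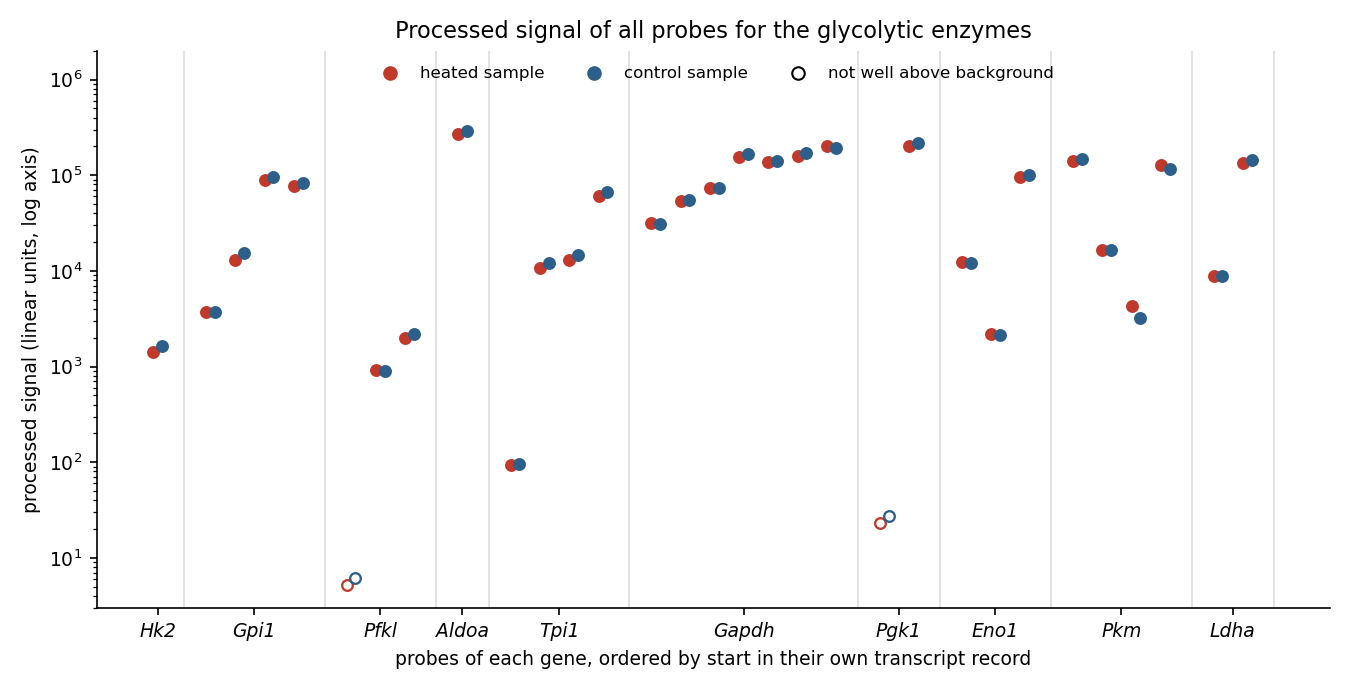
Processed signal (linear units on a log axis) of all 31 probes in the heated sample (red) and the control sample (blue), grouped by gene in pathway order and, within a gene, by start in the probe's own transcript record. Filled and open points are probes well above background and not; at most probes the points of the 2 samples nearly coincide, and the widest gap among the filled pairs is at the Pkm clone probe, with 4255 against 3243.

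Hk2 encodes the hexokinase that phosphorylates glucose in muscle, fat and activated immune cells, and it holds the sugar in the cell. Its 1 probe, at chr6:82675056-82675115 on the minus strand, had a signal of 1403 in heated blood and 1622 in control blood. The difference of -0.17 was the lowest of the 10 genes and stayed below 0 under all 12 alternatives, at -0.21 to -0.10. Only 8 of these, which change the scaling or the background correction, altered the value of this 1 probe. The difference was still smaller than the software's error of 0.204, and 14.8% of all genes ranked at or below it.

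Gpi1 encodes glucose phosphate isomerase, which turns glucose phosphate into fructose phosphate. The junction probe printed above had 13096 in heated blood and 15223 in control blood, a difference of -0.18. A probe of a complementary DNA clone, at chr7:35000956-35001015, had 3713 and 3683 (heated and control), a difference of 0.05. The remaining pair of Gpi1 probes overlap by 56 bases near the end of the messenger RNA and differ at 1 base, which makes them a check of how closely near-identical probes repeat each other.
Gpi1, probe at base 1995: tgttgttctgacctGtatttcacaccccag
Gpi1, probe at base 1999: tgttgttctgacctTtatttcacaccccag
Capitals mark the differing base, G20T counted from 1 at the 5′ end of the first probe, and 30 bases around it are shown. The first had 88950 in heated blood and 95059 in control blood, and the second 77964 and 83062. Their differences, -0.06 and -0.05, lay much closer to each other than to that of the junction probe. The gene's value was -0.06, with an SD over its 4 probes of 0.094, and its sign turned under 3 alternatives, both with normexp background correction and with the plain mean signal minus background.

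Pfkl encodes the liver-type subunit of phosphofructokinase, the main control point of the pathway. The probe of its messenger RNA, at chr10:77450926-77450985 on the minus strand, had 2002 in heated blood and 2172 in control blood. A clone probe at chr10:77470357-77470416 had 910 and 899. The pair differed in sign, at -0.08 and 0.06, and averaged -0.01. A probe of an Ensembl transcript was on neither array well above background, with 5.20 and 6.21, and gave no value.

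Aldoa encodes aldolase A, which splits fructose bisphosphate into triose phosphates. Its 1 probe, at chr7:133938816-133938875 on the minus strand, had a signal of 270458 in heated blood and 289795 in control blood, and no spot on either array was saturated. The difference was -0.06, and it became 0.00 in the authors' deposited log2 values and with normexp and quantile normalization.

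Tpi1 encodes triosephosphate isomerase, which interconverts these triose phosphates. The probes printed above had 10622 and 13138 in the heated sample, against 12101 and 14807 in the control sample, and another, at chr6:124760947-124761006, had 61042 against 67360. All 3 probes of the Tpi1 messenger RNA were lower in the heated sample, at -0.15, -0.13 and -0.10. A probe of an Ensembl transcript, dim at 93.5 and 95.4, had 0.01. The mean over the 4 was -0.09 with an SD of 0.072. It stayed below 0 under all 12 alternatives, at -0.13 to -0.05, though keeping dim probes, keeping outlier spots and other naming left it unchanged. Each Tpi1 probe lay within its error of 0.

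Gapdh encodes the dehydrogenase that oxidises glyceraldehyde phosphate and reduces NAD+, and it is often used as a reference gene for RNA levels. It had 7 probes, all well above background, with signals of 31987 to 204157 in heated blood and 30732 to 194210 in control blood. In the order of the 6 probes along the RefSeq messenger RNA, starting with the one printed above, the differences were 0.10, 0.01, 0.04, -0.05, 0.02 and 0.11. The probe of a complementary DNA clone had -0.04. The differences followed no one direction along the transcript, and their SD was 0.061. Gapdh averaged 0.03, with 5 probes higher and 2 lower, and this sign turned without scaling.

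Gapdh has many processed copies in the mouse genome. Of its 7 probes, 6 also list RefSeq records of other genes, 6 in all, namely Gm10364, Gm12070, Gm5069, Gm5523, Gm6498 and Gm6981, so the signal cannot be assigned to Gapdh alone. On the same arrays 5 probes under other names share a run of at least 25 bases with a Gapdh probe, and their differences lay between -0.01 and 0.09, inside the range of the Gapdh probes themselves.

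Pgk1 encodes phosphoglycerate kinase, the first ATP-yielding step. Its probe on the plus strand, at chrX:103398915-103398974, had 200323 in heated blood and 215639 in control blood, a difference of -0.07 that became 0.00 with normexp and quantile normalization and turned to 0.05 with the mean minus background. The other probe under this name lies 79 bases away at chrX:103398776-103398835 on the minus strand, opposite to the messenger RNA. It was on neither array well above background, with 23.3 in heated blood and 27.3 in control blood, and only the probe of the sense strand gave a value for Pgk1.

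Eno1 encodes alpha enolase, which forms phosphoenolpyruvate. A probe spanning chr4:149618134-149618359 on the plus strand, across an intron, had 12415 in heated blood and 12219 in control blood. A probe at the end of the messenger RNA, chr4:149622928-149622987, had 95236 and 99582, and a probe of an Ensembl transcript at chr4:149616665-149616724 had 2177 and 2138. The 3 differences were 0.06, -0.03 and 0.06, and Eno1 averaged 0.03, a sign that turned without scaling and with the brightest probe alone. The spanning probe also lists the record of the near-identical gene Eno1b, and 2 probes named Eno1b share at least 25 bases with the end probe, with differences of -0.01 and 0.18, so Eno1 and Eno1b cannot be told apart here.

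Pkm encodes the muscle-type pyruvate kinase, whose M1 and M2 forms arise by alternative splicing of 1 gene. It had the highest value, 0.16, and the widest spread over probes, with an SD of 0.205. The junction probe printed above had 16513 in heated blood and 16557 in control blood, a difference of 0.03. Near the end of the gene, a messenger RNA probe at chr9:59527030-59527089 had 129263 against 116393, or 0.19, while a clone probe just beyond it, at chr9:59527118-59527177, had 141158 against 148160, or -0.03. These neighbours thus lay on opposite sides of 0, each within its error.

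The Pkm clone probe printed above had 4255 in heated blood and 3243 in control blood. Its difference of 0.43 was the only one of the 29 that exceeded its error of 0.204, and it is singled out here after its value was seen. The probe lies between the junction probe and the end probes, and no annotation of the mm9 build was used here to say whether the position is exonic or intronic. The brightest Pkm probe alone gave -0.03, and 82.0% of all genes ranked at or below the gene's mean of 0.16.

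Ldha encodes the lactate dehydrogenase subunit that favours lactate formation. The probe printed above had 8771 in heated blood and 8754 in control blood, and the probe at chr7:54110937-54110996 had 134546 and 143494. Their differences of 0.04 and -0.05 averaged -0.01, and that sign turned under quantile normalization, in the authors' deposited log2 values and with the mean minus background.

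**Figure D2:**
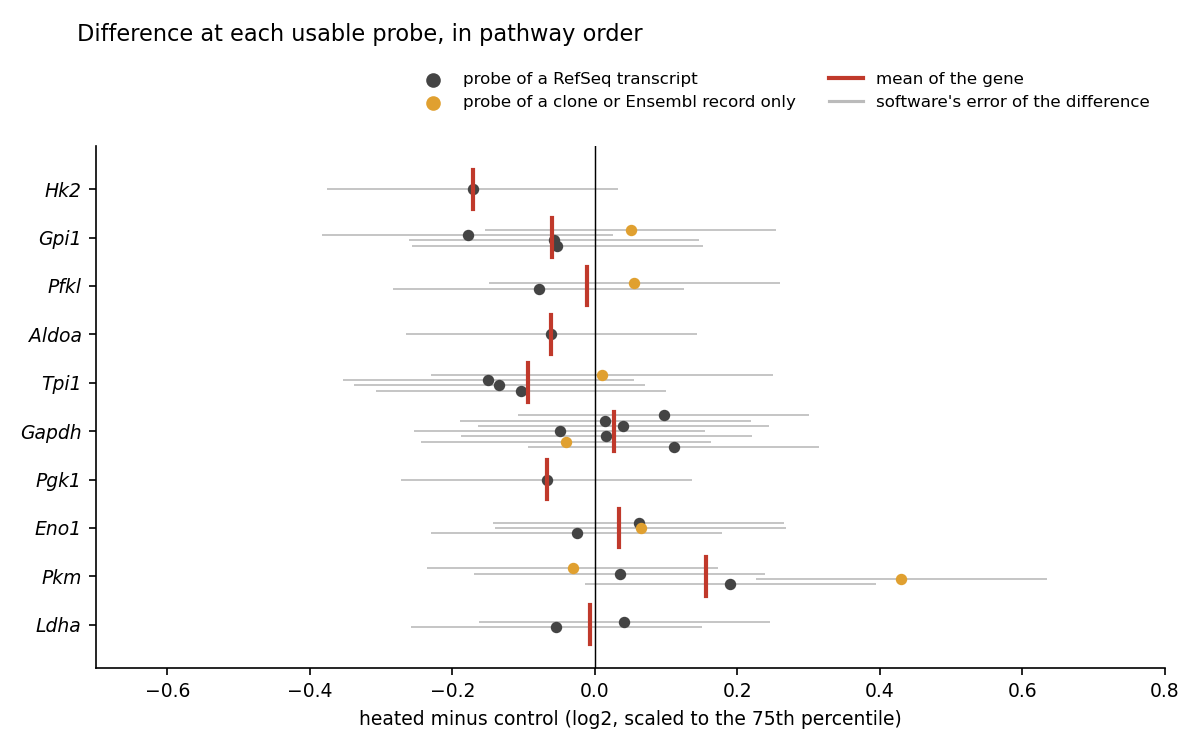
Difference between the heated and the control sample (log2) at each of the 29 usable probes, with genes in pathway order down the page and, within a gene, probes from the start of their record downwards. Grey lines are the scanner software's error, red bars are gene means; every error line but that of the Pkm clone probe at 0.43 reaches 0.

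The sign of a gene's value often depended on which of its probes was read. In all 7 genes with several usable probes, some probes were higher and some lower in the heated sample, and the other 3 genes rested on 1 probe. In Tpi1 the only higher probe was the dim one of an Ensembl transcript, at 0.01. Many of the probe differences were smaller than 0.084, the SD between spots of 1 probe, so their signs say little. The 22 probes that list a RefSeq transcript had a median of -0.05, with 9 higher and 13 lower, and ranged from -0.18 to 0.19. The 7 probes known only by a clone or an Ensembl record had a median of 0.05, with 5 higher and 2 lower, and ranged from -0.04 to 0.43. This split was made after the values were seen, and the probes of 1 gene share its RNA.

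Most steps of glycolysis have isozymes that differ between tissues. The 10 enzymes stand beside 17 genes for isozymes and remaining steps, of which 12 were detected on both arrays and 5 on neither, among them Hkdc1, Pgam2 and Pklr. Pklr is the pyruvate kinase of liver and red cells, and Pgam2 is the phosphoglycerate mutase of muscle. Besides Hk2, the hexokinases Hk1 and Hk3 were detected, besides Pfkl the muscle and platelet forms Pfkm and Pfkp, besides Aldoa the aldolase Aldoc and besides Eno1 the enolases Eno2 and Eno3. Pgam1, which fills the step between Pgk1 and enolase, had 93433 in heated blood and 100450 in control blood at its brighter probe and a mean difference of -0.06. Of 6 germ cell isozymes, which serve sperm, 4 were detected on neither array, Aldoart2 passed in heated blood alone, and Ldhc had 46.3 in heated blood and 39.6 in control blood. The lowest signals that counted as well above background were 24.9 in heated blood and 31.0 in control blood.

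Several of these isozymes lay farther from 0 than any of the 10 enzymes, in both directions. The 12 measured ones had a median of 0.03 whose sign turned under 5 alternatives, with 7 higher and 5 lower, and 2 passed 0.25 in each direction. Of all genes, 52.2% were higher and 47.8% lower, and 9.18% and 8.72% passed 0.25 upwards and downwards. Eno2, the enolase of neurons, had 986 in heated blood and 732 in control blood, a difference of 0.47 that ranged from 0.43 to 0.53 over the alternatives. Ldhb, the subunit that favours pyruvate formation, had 959 against 1279 at its brighter probe and 122 against 169 at the other, differences of -0.38 and -0.42, with a mean of -0.40 and a range of -0.44 to -0.29. Ldha, its partner in the same tetramers, had -0.01. Adpgk, an ADP-dependent glucokinase, had 1453 against 1837, a difference of -0.30, and Ldhd, the D-lactate dehydrogenase, had 0.30 from signals of 52.6 and 43.9. Hk1, picked out after its values were seen, averaged 0.04 from probes that disagreed: the brightest had 43060 in heated blood and 61951 in control blood, or -0.49, another had 11308 against 10195, or 0.19, and 2 dim ones had 0.35 and 0.08.

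**Figure D3:**
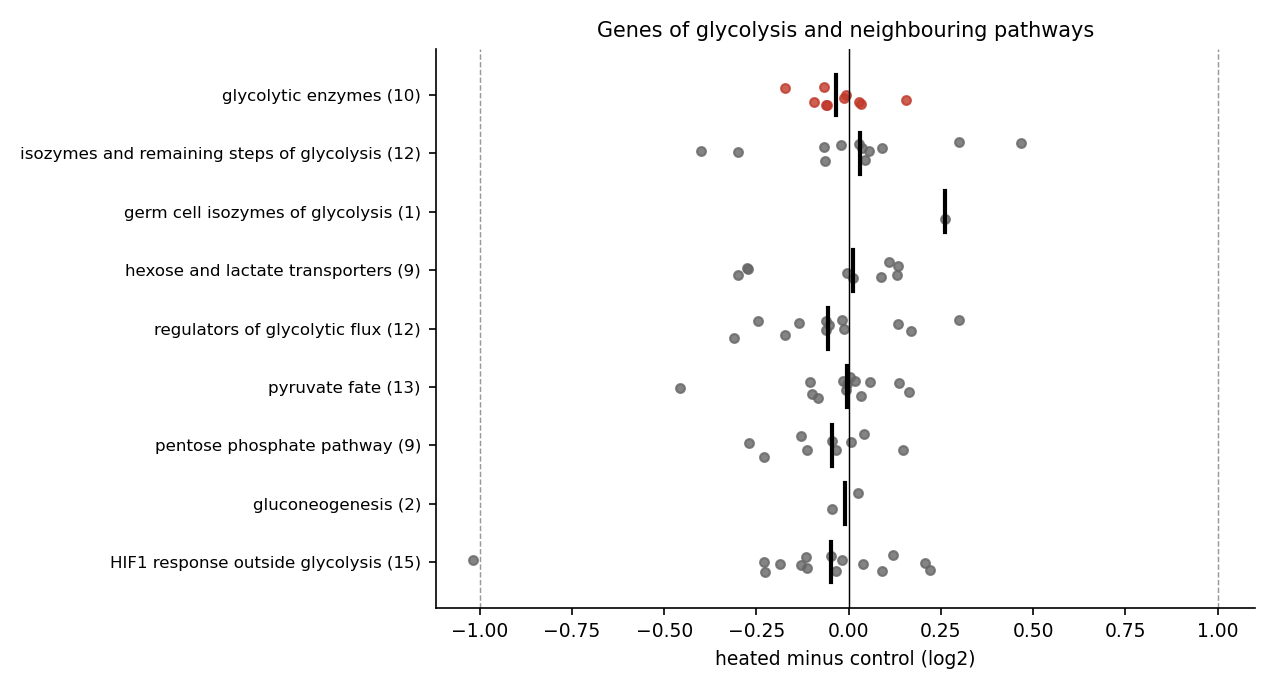
Difference between the heated and the control sample (log2) for the 10 glycolytic enzymes (red) and for genes of 8 neighbouring lists (grey), with the number measured in brackets. Black bars are list medians and dashed lines mark 2-fold; the enzymes lie between -0.17 and 0.16, and several of the lists below them spread more widely.

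Transporters bring glucose in and carry lactate out. Of 12, Slc2a4 and Slc2a5 were detected on neither array and Slc2a2 in heated blood alone, and 9 were measured, 5 higher and 4 lower, with a median of 0.01 whose sign turned under 5 alternatives. Slc2a1, the basal glucose transporter GLUT1, had 8587 in heated blood and 8743 in control blood, a difference of 0.01 after scaling and below 0 before it. Slc2a3, the high-affinity GLUT3, had 0.13 and Slc2a6 0.13, though with dim probes kept both were below 0, at -0.06 and -0.36. None was higher by 0.25, against 9.18% of all genes, and 3 were lower by at least that, against 8.72%. These were Slc2a9, which carries urate, at -0.30, and the monocarboxylate carriers Slc16a7 at -0.28 and Slc16a1 at -0.27. The probes of Slc16a7 ranged from -1.02 to 0.02, and its brightest probe had -0.01.

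Regulators of the flux, 3 higher and 9 lower of 12 measured, had a median of -0.06. Of all genes, 52.2% were higher and 47.8% lower. Myc, a transcription factor that drives glycolytic genes, had 5075 in heated blood and 6257 in control blood at its brighter probe and 499 against 657 at the other, differences of -0.26 and -0.36. Tigar, which lowers an activator of phosphofructokinase, had -0.25. The glucose-sensing factors Mlxip and Mlxipl had 0.30 and 0.17, though the brightest probe of Mlxipl had 0.05 and a dim one, at 73.7 against 58.6, had 0.37. Hif1a averaged -0.06 over its 2 usable probes.

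Genes for the fate of pyruvate lay close to 0 with a median of 0.00 that turned positive under 2 alternatives, 6 higher and 7 lower of 13. Pdha1, a subunit of pyruvate dehydrogenase, had the lowest value at -0.46, which came from an Ensembl transcript probe at 39.9 against 75.3, while its messenger RNA probe had 6118 against 6450, or -0.04. Dld, the dihydrolipoamide dehydrogenase, had -0.10, which turned to 0.03 with the mean minus background, and the kinase Pdk2 had 0.14. Mpc1 of the mitochondrial pyruvate carrier had 0.16, from a clone probe at 91.1 against 72.6, or 0.37, and 2 messenger RNA probes at 0.05 and 0.07. The pentose phosphate pathway, which branches off before phosphofructokinase and makes NADPH, had 3 genes higher and 6 lower of 9 and a median of -0.05. The shares of all genes were 52.2% higher and 47.8% lower. The extremes of the pathway were H6pd at -0.27, Rpia at -0.23, Pgd at 0.15 and Rpe at 0.04. The brightest probe of Pgd had 0.03 and that of Rpe -0.04.

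Of 6 genes of gluconeogenesis, the reverse route of liver and kidney, Fbp1, Fbp2 and G6pc were detected on neither array. Pck2 and G6pc3 were measured, at 0.02 and -0.04. Pck2 averaged 2 probes of opposite sign. The brighter had 4382 in heated blood and 3953 in control blood, or 0.19, and the other 167 against 189, or -0.14. The sign of Pck2 turned with normexp and quantile normalization and without scaling. Pck1, noticed after its values were seen, was detected on the heated array alone, with 59.3 against 7.99 in the control sample at its 1 probe. With the control sample set to 31.0, the lowest signal there that counted as well above background, it was 1.97-fold higher after scaling. This is no strict lower bound, since an undetected signal can exceed 31.0, as Nkg7 did with 32.6 in the control sample.

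HIF1 targets outside glycolysis, which answer the same factor as many glycolytic genes, had a median of -0.05, with 5 higher and 10 lower of 15. Of all genes, 52.2% were higher and 47.8% lower, shares that also belong beside the marker counts below. Ddit4, an inhibitor of mTOR signalling, had -0.23, Ndrg1 0.22 and Ankrd37 0.21. Vegfa had -0.23 over 4 probes and Bnip3 -0.11, and Adm was not detected. The 10 markers of dividing cells were 2 higher and 8 lower, and the 12 monocyte and macrophage markers were 10 higher and 2 lower. Their summed signals were 257289 in heated blood and 274357 in control blood for dividing cells, and 755706 and 755928 for monocytes and macrophages. These sums take each gene's brightest probe on each array before scaling, so they are not on the footing of the counts. The part of these markers in the medians was not tested.

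**Figure D4:**
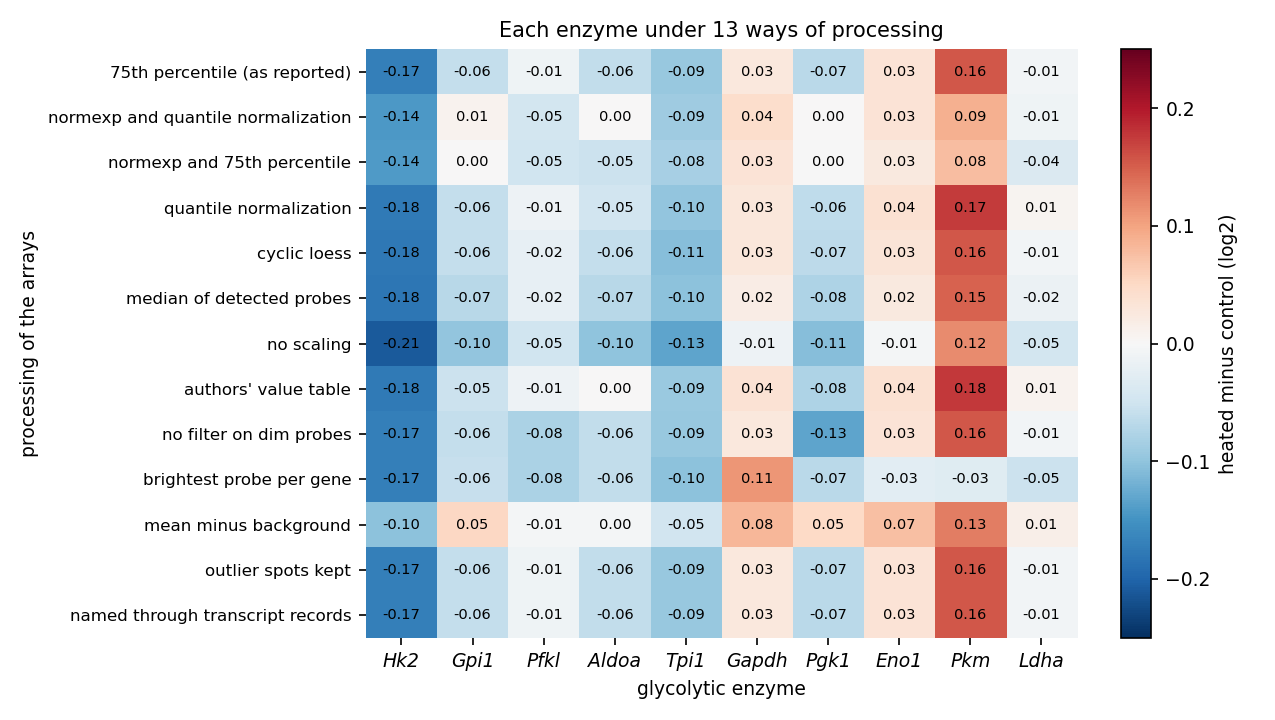
Difference between the heated and the control sample (log2, colour and number) for each of the 10 enzymes under the reported processing (top line) and 12 alternatives. No value reaches 0.25 in either direction. Hk2, Pfkl and Tpi1 stay below 0 in every line, and the sign of each of the other 7 turns or becomes 0.00 in at least 1. The lines with outlier spots kept and with other naming repeat the top line.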

How the data were processed

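Each array came as 1 scanner file deposited by the authors, with a linear intensity per spot in the green channel: its processed signal with an error, its mean and its local background. Per the file headers it was read with Agilent Feature Extraction 10.7.1.1, while the submitters' processing notes name version 9.1. Flags for signal well above background, saturation and outliers are the software's. The authors' deposited table holds log2 values with a median of 5.26 in each column; it ran in the direction of the scanner files (r of 0.9999 with the log2 processed signal on each array), and how it was normalized is not given in the sources used here.

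Outlier spots (168 in the heated sample, 149 in the control sample) were left out, spots of a probe averaged after log2, and each array's 75th percentile over probes (604 and 620) subtracted. A probe counted as detected when over 0.5 of its spots were flagged well above background. Differences of 1 and 0.25 on the log2 scale were counted, without p-values. Genes were named by the files' gene name, and 188 of 189 listed symbols were on the array, 1 by an older name. Other records on a probe were named through RefSeq, GRCm38.p6, without its coordinates. The members, lists, thresholds and alternatives were chosen with earlier results of these data known. Named genes are all 10 enzymes and the 2 highest and 2 lowest of each further list (1 each with 6 or fewer measured); a few listed genes are not reported here. The steps were tested on simulated data. Differences were computed in Python 3.11.15 (pandas 2.3.3, numpy 2.4.6) and drawn with matplotlib 3.10.9; normexp, quantile and loess normalization used limma 3.58.1 in R 4.3.3, and files were read with the R package data.table in version 1.17.8. The labels' protocols mention 3 replicates, but each group held 1 array here, and their number limits the precision.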

Additional observations from a re-analysis of the deposited data

How the results depend on the processing

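Over 12 alternatives (normexp with offset 50, other scalings, the authors' values, no filter, brightest probe, mean minus background, outliers kept, other naming), none of the 10 enzymes was 2-fold apart or passed 0.25 in either direction. Their median ranged from -0.07 to 0.03: it became 0.00 with normexp and quantile normalization and turned positive with the mean minus background. The count of all genes 2-fold apart, 123, became 38 with normexp and quantile normalization, 36 with normexp and the 75th percentile and 1735 with dim probes kept, which lets in signals not above background; this last setting also moved the median of all genes to -0.10. Of the further values, for single genes and lists, 501 moved by less than 0.084, the SD between spots of 1 probe, and 51 by more. The 501 include values that did not move at all. Keeping outliers and other naming left every one of these values as reported, and for genes with 1 probe the filter and the brightest probe change nothing. The 501 is therefore no measure of stability. Among the named genes Slc2a9 lay between -0.83 and -0.22, Ldhd between 0.08 and 0.30, Mlxip between 0.13 and 0.30, and Tigar between -0.29 and -0.10. No paired analysis was possible because each group held 1 array. A single probe's difference under 0.204 lies within the scanner software's error, and with 1 array a group the spread between animals or samples is unknown.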
